A study of Homo sapiens with 4 samples.

Results

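Older L1 elements were described here as every transposable element (TE) feature whose family name begins with L1, leaving out the names L1HS and L1PA of the youngest families. This rule uses names only and no measured value. It took 29504 of the 261609 TE loci, in 88 of 655 families. A family name together with a position number, the second field of each feature, is called a class, and 196 of 1383 classes were older L1. L1 elements (LINE-1) copy themselves through an RNA intermediate, and a full-length copy carries a promoter in its 5′ untranslated part, 2 reading frames and a 3′ end. In the human genome only some of the youngest copies can still move, and the L1M (mammalian-wide) and older L1P (primate) families are mostly fragments that have collected mutations. DNA methylation and repressive chromatin, set by complexes such as HUSH and TRIM28 with SETDB1, are known to silence many L1 copies, while fragments inside genes can also be read as part of longer transcripts. The name endings 5end, orf2 and 3end follow the repeat database convention of splitting the L1 consensus into its start, its second reading frame and its end.

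The study used 5′ single-cell RNA-seq on the 10x Genomics system, which reads polyadenylated RNA from the 5′ side of the transcript. H1299, a non-small cell lung cancer line, and HCT116, a colorectal cancer line, were grown with the solvent DMSO or with 500 nM DAC (decitabine, an inhibitor of DNA methyltransferases) for 72 h and 500 nM SB939 (an inhibitor of histone deacetylases) for 18 h. Medium with compound was renewed every 24 h, and the passage number was 5 to 10. There was 1 library for each line and condition, so differences within a line have no replicate check and no test was made, and every interval below covers counting error alone. The treated libraries are called DAC+SB. With DMSO and DAC+SB in turn, total counts of genes and TE were 64524196 and 62428673 in H1299, over 3578 and 3726 cells, and 62639099 and 38927267 in HCT116, over 3658 and 4327 cells. A median cell had 17370 and 15785 counts in H1299 and 16258 and 8449 in HCT116. The summed level of the 5 H1299 markers (VIM, ZEB1, CDH2, AXL, FN1) was 2536 and 1229 CPM (counts per 1000000 counts of the library) in H1299 and 87.4 and 293 CPM in HCT116, and that of the 5 HCT116 markers (CDH1, EPCAM, VIL1, LGALS4, ELF3) was 0.155 and 7.48 CPM in H1299 and 83.8 and 59.5 CPM in HCT116. Each summed level was thus higher in both libraries of its own line than in either library of the other. Most of each sum in its own line was 1 gene. Among cells under the limit of 15 older L1 counts described below, VIM was at 2283 and 1151 CPM in H1299. EPCAM was at 80.7 and 45.6 CPM in HCT116 and at 0.0155 and 4.47 CPM in H1299. Whether the other genes of each list separate the lines was not compared. Of 15158 distinct barcodes, 131 occurred in more than 1 library.

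Older L1 made up most L1 counts and, without treatment, a large part of all TE counts. It held 53269 counts with DMSO and 59597 with DAC+SB in H1299, which were 94.2% and 80.6% of L1 counts and 41.5% and 3.09% of TE counts. In HCT116 it held 29351 and 47775 counts, which were 94.1% and 89.5% of L1 counts and 14.7% and 2.21% of TE counts. The fall in share went with the level of TE other than L1, whose log2 ratio of DAC+SB over DMSO was 4.61 in H1299 and 4.22 in HCT116.

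Ratios were taken only over shared classes, those that a line lists with DMSO and also with DAC+SB, since a class that is not listed is not a measured 0. These were 62 older L1 classes in H1299 and 55 in HCT116, and 38 were listed in all 4 libraries. In H1299 the older L1 level was 722 CPM with DMSO (46618 counts) and 710 CPM with DAC+SB (44347 counts), a log2 ratio of -0.02 (-0.04 to -0.01). In HCT116 it was 433 CPM (27094 counts) and 862 CPM (33536 counts), a log2 ratio of 0.99 (0.97 to 1.02). The HCT116 ratio was 0.47 without cells under 5000 counts. It was 0.39 without the 5% of cells in each library with most older L1 counts at equal depth. It was 0.20 without the cells highest in older L1 described below. The last 2 settings chose cells on the measured counts. They also left out cells under 3300 counts, which by itself lowered the ratio, as given below. The counting interval covers none of these ratios. Both values lay below those of the young L1 (L1HS and L1PA) classes, at 1.97 in H1299 and 1.79 in HCT116, and below those of all TE classes, at 3.80 and 4.02. The H1299 value was above 0 under 5 other choices of classes, loci or denominator, up to 0.21, so that no direction is given for it. Over the classes listed in all 4 libraries, the ratio was lower in H1299 than in HCT116 by 1.02 on the log2 scale (H1299 minus HCT116 -1.02, -1.05 to -0.99). Counted per cell over the same classes, the ratio was 0.931 in H1299 and 1.07 in HCT116, a smaller difference. It was also smaller with cells left out by depth or older L1 counts, as given in the last section. Over shared classes and counted per cell, the HCT116 level was 7.41 with DMSO and 7.75 with DAC+SB, a ratio of 1.05, and the H1299 level was 13.0 and 11.9, a ratio of 0.913. In HCT116 a higher share of older L1 and fewer counts of everything else in each cell cannot be told apart in these numbers.

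Classes listed in 1 library of a line only were numerous. In H1299, 31 older L1 classes with 6651 counts were listed with DMSO only and 50 classes with 15250 counts with DAC+SB only. In HCT116 the numbers were 14 classes with 2257 counts and 58 classes with 14239 counts. Among them, L1P2_5end was listed in H1299 DAC+SB alone, with 3632 counts in 3 classes. L1M5_orf2 at position number 142 was listed in both DAC+SB libraries, with 1573 counts in H1299 and 1105 in HCT116, and in neither DMSO library. No ratio can be given for these classes.

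By name group, H1299 values lay on both sides of DMSO and HCT116 values above it. In H1299, several L1M groups were slightly lower with DAC+SB. L1MB went from 341 to 295 CPM (log2 -0.21, -0.24 to -0.18), L1MC from 165 to 144 CPM (-0.20) and L1ME from 78.2 to 66.6 CPM (-0.23). Over all classes listed in either library, L1MC was at -0.0053 and L1ME at 0.03. Other L1M names were at 54.3 and 39.5 CPM (-0.46), or at 0.08 without the L1M2_5end copy with most counts. Over all listed classes, other L1M names were at 74.2 and 85.1 CPM. L1MD was at -0.18, and L1MA went the other way, from 8.14 to 9.10 CPM (0.16, -0.01 to 0.34). L1PB and the other L1P names together were higher, with L1PB at 10.8 and 17.7 CPM (log2 0.71, 0.57 to 0.85) and the other L1P names at 41.0 and 117 CPM (1.52, 1.45 to 1.58). The family L1P1_5end held most of the latter, and without it the other L1P names were at 14.2 and 18.3 CPM (0.37, 0.24 to 0.50), with L1PREC2_5end at -0.29 (-0.98 to 0.39). In HCT116 each of the 8 name groups had a higher CPM with DAC+SB. L1MB was at 235 and 481 CPM (1.03), L1MC at 64.0 and 127 CPM (0.99), L1ME at 60.2 and 127 CPM (1.08), L1PB at 18.4 and 26.2 CPM (0.51) and the other L1P names at 25.5 and 59.8 CPM (1.23, or 0.83 without L1P1_5end). L1MA (0.34), L1MD (0.48) and other L1M names (0.40) moved less over shared classes. For other L1M names, 75.1% of DMSO and 86.8% of DAC+SB counts in HCT116 were in classes listed in 1 library only. Over all listed classes these names were at 28.2 and 70.2 CPM in HCT116. L1PB over all listed classes was at 26.4 and 32.9 CPM in H1299 and 21.2 and 79.0 CPM in HCT116. As counts per cell, L1MA (-0.59), L1MD (-0.45), L1PB (-0.42) and other L1M names (-0.52) were below DMSO in HCT116.

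**Figure D1:**
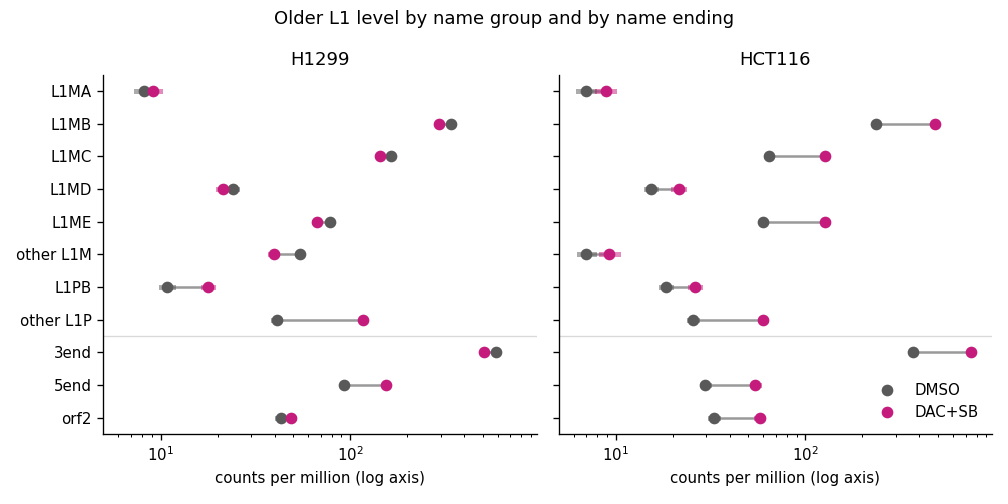
Older L1 level in CPM (log axis) by name group (upper rows) and by name ending (lower rows) over the shared classes of each line, with DMSO in grey and DAC+SB in magenta. Each point is 1 library and each thick bar its exact Poisson interval. L1MB, L1MC and L1ME lie slightly to the left of DMSO in H1299 and to its right in HCT116.

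By name ending, the 3end names carried most older L1 counts in each library, at 78.1% and 59.4% in H1299 and 80.4% and 76.3% in HCT116, DMSO first, over all listed classes. Over shared classes, 3end names went from 586 to 507 CPM in H1299 (log2 -0.21) and from 370 to 750 CPM in HCT116 (1.02). The 5end names, which hold the promoter end of the element, went from 93.2 to 154 CPM in H1299 (0.73) and from 29.7 to 54.4 CPM in HCT116 (0.87). Their H1299 ratio was 2.10 over the 5 5end classes listed in all 4 libraries and 1.26 without the locus with most counts, a copy of L1M2_5end described below. The 5end ratios rest on L1P1_5end. Without this family the 5end names went from 66.4 to 55.3 CPM in H1299 (-0.26, -0.33 to -0.20) and from 23.1 to 28.2 CPM in HCT116 (0.29, 0.18 to 0.41). With the L1M2_5end copy left out as well, the H1299 ratio was 0.22 (0.13 to 0.31), so the sign of the remaining 5end names there turned with 1 locus. The orf2 names were at 0.18 in H1299 and 0.80 in HCT116. Counted per cell over shared classes, the HCT116 ratio was 1.07 for 3end, 0.961 for 5end and 0.913 for orf2 names. Without L1P1_5end, the HCT116 5end names had 1445 counts with DMSO and 1099 with DAC+SB, so only their CPM was higher.

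Among single families, the 2 largest were the same in both lines. L1MB7_3end had 9691 and 7949 counts in H1299 (150 and 127 CPM, log2 -0.24, -0.28 to -0.20) and 6053 and 8037 counts in HCT116 (96.6 and 206 CPM, 1.10, 1.05 to 1.14). L1MB8_3end had 5917 and 4863 counts in H1299 (-0.24) and 4262 and 4859 counts in HCT116 (0.88). In CPM both were thus below their DMSO level in H1299 and above it in HCT116. Counted per cell, L1MB8_3end was below DMSO in HCT116 too, at a ratio of 0.964. In CPM it was also below DMSO there without cells under 3300 counts and the cells highest in older L1 described below. That choice of cells was made on the measured counts, and with it L1MB7_3end came closer to its DMSO level. Of the other 8 H1299 families with most counts, L1MC5a_3end (-0.65), L1M2_5end (-0.70, or 1.05 without 1 locus), L1MB5_3end (-0.13), L1ME3A_3end (-0.14) and L1MB4_3end (-0.14) were lower with DAC+SB beyond counting error. L1MC3_3end was at 0.10 (0.01 to 0.19), but at -0.12 over all listed classes, -0.07 over classes listed in all 4 libraries and -0.11 without the locus with most counts, and L1MC1_3end at 0.07 (-0.03 to 0.17), an interval that includes 0. L1P1_5end stood apart from this group at 1.89. In HCT116 the other 8 were L1MB5_3end (1.26), L1ME3A_3end (1.11), L1MC1_3end (1.16), L1MB4_3end (0.85), L1ME3Cz_3end (1.41), L1MB3_3end (0.97), L1MC4_3end (0.80) and L1MC3_3end (1.16). All of these had intervals above 0 and lay between 0.80 and 1.41.

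L1P1_5end was the class with the highest ratio in both lines. At position number 1 it went from 442 to 4019 counts in H1299 (6.85 to 64.4 CPM, log2 3.23, 3.09 to 3.38) and from 418 to 1019 counts in HCT116 (6.67 to 26.2 CPM, 1.97, 1.81 to 2.14). The counts lay over 140 loci with DMSO and 906 with DAC+SB in H1299, and over 122 and 475 in HCT116. Leaving out the locus with most counts raised the ratio to 3.91 in H1299 and 2.36 in HCT116. Its other H1299 classes, at position numbers 71 and 72, moved less, from 678 to 1129 and from 608 to 1028 counts. A count of L1P1_5end at position number 1 was found in 10.2% of H1299 cells with DMSO and 52.1% with DAC+SB, and in 9.35% and 18.1% of HCT116 cells, without equalising depth. No cells known to lack these transcripts were in the study, so a background share was not measured. L1P2_5end, in its 1 listing library, was found in 52.4% of cells and over 727 loci. How close copies named L1P1 or L1P2 are in age to the L1PA families was not determined. Without these names the H1299 older L1 ratio was -0.19 and the HCT116 ratio 0.97.

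In H1299 the next classes by ratio were L1PBa_5end at position number 83 (279 to 518 counts, log2 0.94) and L1P1_5end at 72 (0.81). The lowest were L1MEg1_5end at 17 (159 to 76 counts, -1.02), L1MC5a_3end at 126 (1697 to 880 counts, -0.90) and L1ME4c_3end at 7 (207 to 108 counts, -0.89). Each of these 3 rested on a single locus, which held 73.2%, 84.7% and 60.0% of its counts. Without that locus the ratios were 0.19, -0.39 and -0.14. In HCT116, L1MB1_3end at position number 34 (91 to 197 counts, 1.80) and L1ME3Cz_3end at 13 (582 to 1085 counts, 1.58) followed L1P1_5end. Locus 996877 held 90.6% of the L1ME3Cz_3end counts, and without it the ratio was 0.61. The lowest in HCT116 were L1M3e_5end at 104 (146 to 48 counts, -0.92, with 97.4% of its counts in 1 locus), L1PBa1_5end at 17 (104 to 70 counts, 0.12, -0.34 to 0.57) and L1MDa_5end at 105 (254 to 186 counts, 0.24, -0.04 to 0.52). L1PBa1_5end had 70.1% of its counts in locus 2307322, and without it the ratio was 1.99 (1.09 to 2.96). The last 2 had fewer counts with DAC+SB but not a lower CPM, and their intervals include 0.

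**Figure D2:**
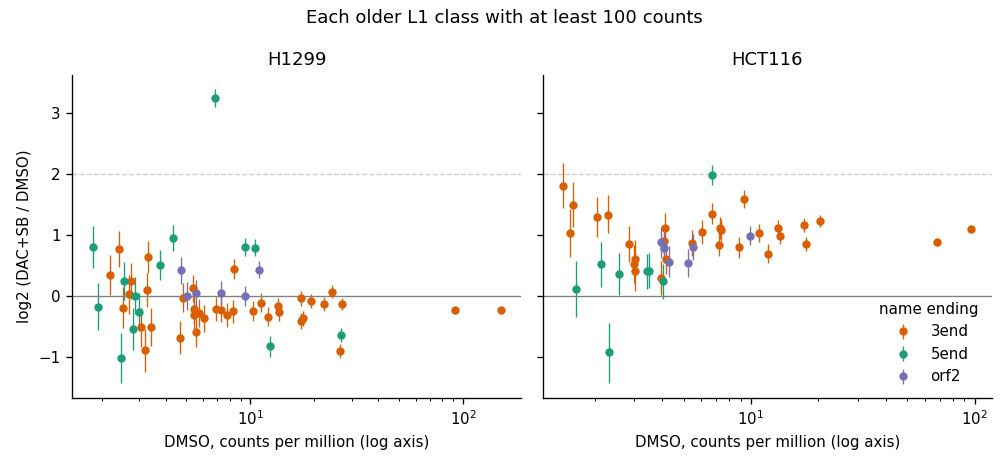
Log2 ratio of DAC+SB over DMSO for each older L1 class with 100 or more counts in its higher library, against its DMSO level in CPM (log axis). Colours give the name ending, bars the exact conditional binomial interval, and the dashed line a ratio of 4-fold. In H1299 L1P1_5end at position number 1 is the lone class above 2, at 3.23, and in HCT116 the classes lie between -0.92 and 1.97.

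A class was called when it differed at least 4-fold with 100 or more counts in its higher library. In H1299, 1 of 58 older L1 classes was called higher, where 16.2% of the 173 TE classes tested were, and 0 were called lower, as were 0% of all TE classes. At 2-fold, 1 was higher (26.6% of all) and 1 lower (1.16% of all). In HCT116, 0 of 43 were called 4-fold higher (39.5% of all) and 0 lower (0.541% of all). At 2-fold, 17 of 43 were higher (63.2% of all) and 0 lower (0.541% of all). Fewer older L1 classes were higher when cells were left out by depth or older L1 counts, as given below. The median log2 ratio was -0.15 for older L1 classes and 0.23 for all TE classes in H1299, and 0.88 and 1.49 in HCT116. The 1 class called higher in H1299 was L1P1_5end at position number 1.

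The position numbers of the 3end names recurred across families. Number 40 was shared by 11 families, among them L1MB3, L1MB4, L1MB5, L1MB7 and L1MB8, and held 39.1% and 28.7% of older L1 counts in H1299 and 47.2% and 37.2% in HCT116, DMSO first. The neighbouring number 39 was shared by 8 families, L1MB2_3end and L1MA1_3end among them. L1MC1_3end and L1MC2_3end were both listed in all 4 libraries at 51, and so were L1ME3B, L1ME3D and L1ME3E at 45. Of the orf2 names, 6 families shared number 128, and of the 5end names, 8 shared number 1, L1P1 and L1P2 among them. No source used here says what the number measures, so these are groupings of labels and not sites in the element. No sequence is shown, because the loci carry no coordinates.

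**Figure D3:**
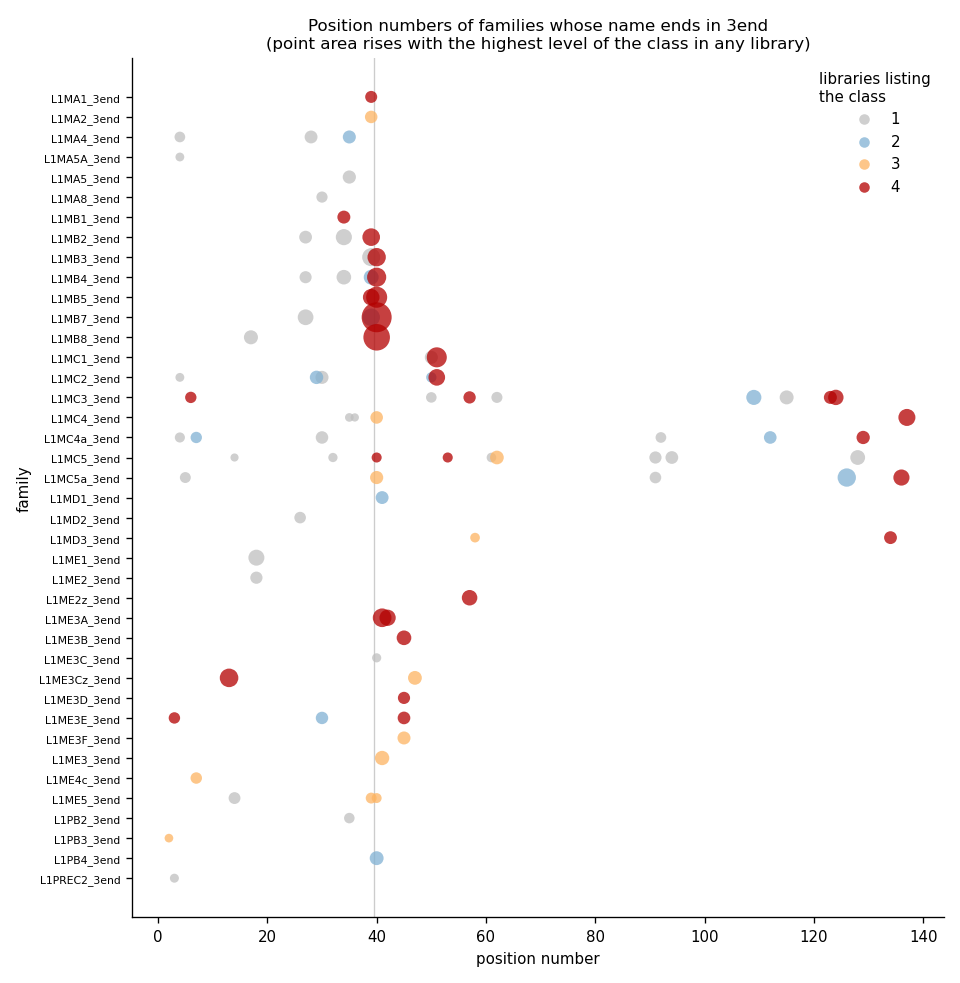
Position number of each listed class of the older L1 families whose name ends in 3end, with point area rising with the highest level of the class in any library and colour giving the number of libraries that list it. The vertical line lies between 39 and 40, where each L1MB family but L1MB1_3end, listed at 34, has a class. L1MC1 and L1MC2 share 51.

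Counts were spread thinly over many loci. After thinning each library to 38927267 counts, older L1 counts of shared classes lay over 6592 loci with DMSO and 7938 with DAC+SB in H1299, and over 5718 and 9320 in HCT116. Between 52.3% and 55.9% of these loci had a single count. Loci with at least 20 counts held 42.1%, 34.0%, 17.7% and 29.4% of the counts in the same order. The number of loci was thus higher with DAC+SB in both lines, also in H1299 where the older L1 level was not. Without L1P1_5end, the thinned H1299 numbers were 6233 and 6883 loci. The unthinned 5end counts in H1299 lay over 762 loci with DMSO and 1894 with DAC+SB, and without L1P1_5end over 365 and 543.

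A few single loci stood out from this spread. Locus 4754023 of L1M2_5end had 3001 counts in H1299 DMSO, 5.63% of the older L1 counts there, and 1414 in H1299 DAC+SB. Of the 3001, 528 were in a class not listed with DAC+SB, and over shared classes the pair was 2473 and 1414 (log2 -0.76). No class of L1M2_5end was listed in HCT116. Locus 5034991 of L1MC5a_3end had 1470 and 712 counts in H1299, and locus 1276234 of L1MC5_3end had 431 and 351. Locus 2335169 of L1MC_orf2 was level at 369 and 369 counts, and locus 1803245 of L1MB7_3end had 362 and 134. All of these except the L1MC_orf2 copy were lower with DAC+SB. These 5 copies were those with most counts in H1299 DMSO, and that choice favours lower values in the other library. The highest locus of L1P2_5end, 5875901, had 1052 counts in H1299 DAC+SB, and locus 1006807 of L1MC2_3end had 646 there, both in classes not listed with DMSO.

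In HCT116 DMSO the locus with most counts was 4747987 of L1M5_orf2, with 1048, in a class listed in no other library. Locus 996877 of L1ME3Cz_3end was high in every library, with 339 and 241 counts in H1299 and 502 and 1009 in HCT116, DMSO first. Locus 996867 of L1MB2_3end had 157, 106, 308 and 450 counts in the same order, and locus 1770366 of L1MB8_3end 187, 157, 252 and 271. Locus 3590001 of L1MB8_3end favoured HCT116, with 253 and 206 counts there against 18 and 14 in H1299. In HCT116 DAC+SB, locus 3546512 of L1MB7_3end had 343 counts and locus 110976 of L1MEd_5end 292, both in classes listed in that library alone.

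By ratio, locus 2548467 of L1MB7_3end was the highest in H1299 among the 57 loci with at least 100 counts, with 50 counts with DMSO and 306 with DAC+SB (log2 2.66, 2.23 to 3.12), against 0 and 2 in HCT116. L1MB8_3end locus 2874336 (63 to 193 counts), L1MC3_3end locus 5943285 (39 to 115), L1MC4a_3end locus 2857231 (81 to 194) and L1MC1_3end locus 2856114 (49 to 117) followed, between 1.30 and 1.66. The lowest were L1MB7_3end locus 5650525 (124 to 27 counts, -2.15, -2.81 to -1.54), L1MC4_3end locus 3204369 (230 to 65, -1.78) and L1MB7_3end locus 3155566 (169 to 52, -1.65). Copies of L1MB7_3end were therefore found at both ends of the H1299 range.

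In HCT116, 17 loci reached 100 counts in either library, and 5 of them were near absent with DMSO. L1MB7_3end locus 4083428 had 1 and 175 counts (log2 8.14, 5.64 to 13.4), locus 4749013 of the same family 2 and 192 (7.27, 5.40 to 10.3) and locus 987994 4 and 134 (5.75, 4.36 to 7.65). L1MB8_3end locus 2914336 had 0 and 160 counts and L1MB3_3end locus 5592372 had 0 and 108. With the 0 set to the limit of 3 counts that a count of 0 allows, these were at least 6.42 and at least 5.86 higher on the log2 scale. In H1299 DAC+SB these 5 loci had 18, 64, 4, 38 and 62 counts. The lowest in HCT116 were L1P1_5end locus 911850 (103 to 14 counts, -2.19), L1MB8_3end locus 5306372 (105 to 15 counts, -2.12) and L1M3e_5end locus 2336761 (144 to 45 counts, -0.99). The L1MB8_3end copy had 108 and 108 counts in H1299, and the L1M3e_5end copy 241 and 318.

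A locus was called when it differed at least 4-fold with 20 or more counts in its higher library. In H1299, 63 of 414 older L1 loci were called higher (80% of all 3220 TE loci tested) and 18 lower (0.932% of all). In HCT116, 76 of 280 were called higher (90.6% of all 6917) and 6 lower (0.405% of all). Fewer HCT116 older L1 loci were higher with cells left out by depth or older L1 counts. More were lower with cells left out by older L1 counts. Both are given below. The median log2 ratio was -0.28 in H1299 and 0.94 in HCT116, against 4.19 and 4.46 over all TE loci. With a minimum of 100 counts, 1 older L1 locus was called higher and 1 lower in H1299, and 5 and 2 in HCT116. No share over all TE loci was taken at that minimum.

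**Figure D4:**
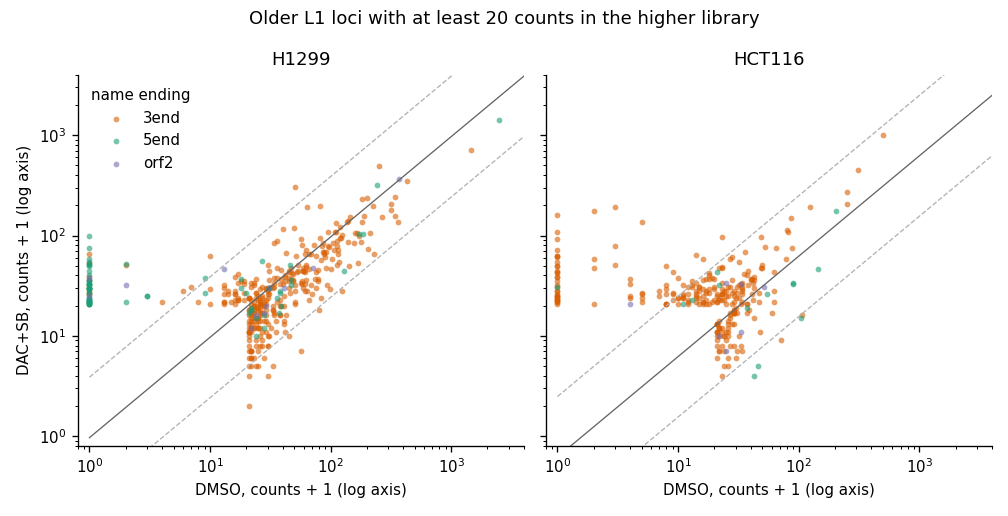
Counts plus 1 of each older L1 locus with 20 or more counts in its higher library, DMSO against DAC+SB (log axes), coloured by name ending. The solid line is an equal CPM and the dashed lines are 4-fold away. In HCT116 loci of 3end names with 0 to 4 DMSO counts reach up to 192 counts with DAC+SB.

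Loci with many counts were compared between libraries on unthinned counts, so depth was not equal. Over classes listed in all 4 libraries, 280 loci had at least 20 counts in H1299 DMSO and 166 in HCT116 DMSO, and 85 were common to both, 30.4% of the former and 51.2% of the latter. With DAC+SB the numbers were 244 and 197, with 68 in common (27.9% and 34.5%). Within H1299, 171 loci were common to DMSO and DAC+SB (61.1% and 70.1%), and within HCT116 84 were (50.6% and 42.6%). Over all TE loci at the same limit, the lines had 171 in common with DMSO (35.3% of 485 and 42.9% of 399). They had 2160 in common with DAC+SB (75.1% of 2875 and 62.7% of 3445). Between DMSO and DAC+SB, 330 TE loci were common within H1299 (68.0% and 11.5%) and 281 within HCT116 (70.4% and 8.16%). Over all listed classes, 8 loci had at least 100 counts in both DAC+SB libraries. The 5 with the highest lower count were L1MEg_5end locus 6613687 (665 in H1299 and 309 in HCT116, in a class listed in neither DMSO library), L1ME3Cz_3end locus 996877, L1MB8_3end locus 1770366, L1MB8_3end locus 6611374 (137 and 150, with 135 and 86 with DMSO) and L1M5_orf2 locus 6338972 (115 and 121, in a class listed in neither DMSO library).

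Older L1 counts were much less evenly spread over cells in HCT116 DAC+SB than in the other libraries. Each cell was thinned to 3300 counts, which dropped 402 treated HCT116 cells and none elsewhere. A count of a shared class was then found in 85.5% of H1299 DMSO cells (exact Clopper-Pearson interval 84.3% to 86.7%), 85.1% of H1299 DAC+SB cells (83.9% to 86.2%), 64.9% of HCT116 DMSO cells (63.4% to 66.5%) and 69.2% of HCT116 DAC+SB cells (67.7% to 70.6%). Without thinning, and with the 402 cells kept, the shares were 99.6%, 99.3%, 95.7% and 88.5%, with the HCT116 libraries in the opposite order. The median thinned count was 2, 2, 1 and 1, while the mean was 2.47, 2.44, 1.45 and 3.53. The HCT116 mean was therefore higher with DAC+SB while the median thinned count, a small whole number, was the same. The upper quartile was 2 with DMSO and 3 with DAC+SB in HCT116, and 34.6% and 42.3% of cells had at least 2 counts. Without thinning, the median older L1 share of an HCT116 cell's counts was 0.032% with DMSO and 0.039% with DAC+SB.

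A small set of HCT116 DAC+SB cells had far more older L1 counts than the rest. With a limit of 15 older L1 counts in 3300, chosen after the distribution was seen, 2 cells of H1299 DMSO, 2 of H1299 DAC+SB, 5 of HCT116 DMSO and 210 of 3925 HCT116 DAC+SB cells (5.35%) were at or above it. These 210 cells are a range of a continuous value and not a cell type, and 72 cells of that library lay between 12 and 17 counts. They held 2.82% of the counts of all thinned cells and 37.3% of their older L1 counts, and 66 of them reached 40 or more. The highest cell had 161, against 21, 16 and 21 in the other libraries. Leaving out the 402 cells under 3300 counts moved the HCT116 older L1 ratio from 0.99 to 0.82. Leaving out also the cells at or above the limit moved it to 0.20. These cells were chosen by their older L1 counts, so their removal lowers the ratio by construction, and the values describe how much of it they hold. With the 5% of cells with most older L1 counts in 3300 left out of each library alike, and no cell under 3300 counts, it was 0.39. The H1299 ratio was -0.02, -0.02 and -0.03 in the same 3 settings. By ending, the HCT116 ratio in these 3 settings was 0.82, 0.11 and 0.33 for 3end names, 0.71, 0.45 and 0.55 for orf2 names and 0.85, 0.80 and 0.85 for 5end names. The other L1P names were at 1.20, 1.10 and 1.17, L1MB7_3end at 0.90, 0.13 and 0.35, and L1MB8_3end at 0.66, -0.14 and 0.11. Of HCT116 older L1 classes, 9, 4 and 4 were called 2-fold higher in place of 17, and of loci 52, 21 and 23 were called 4-fold higher in place of 76. No share over all TE was taken in these settings.

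**Figure D5:**
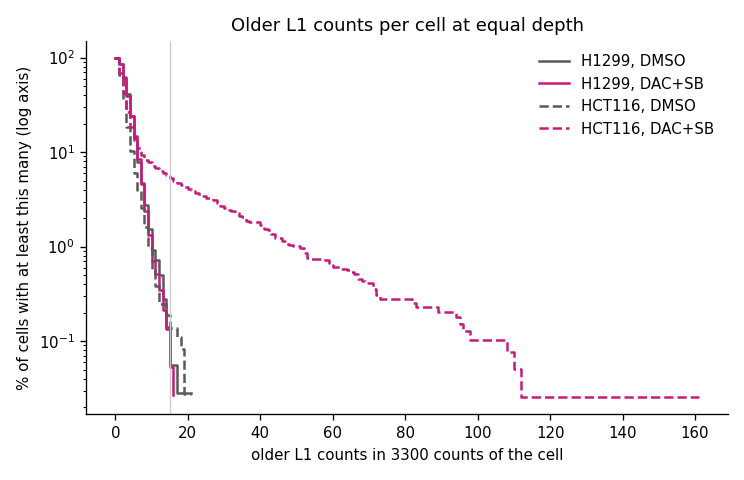
Share of cells (log axis) with at least a given number of older L1 counts after thinning each cell to 3300 counts, for the 4 libraries. The grey line marks 15 counts. The HCT116 DAC+SB curve leaves the others below that line and runs to 161, while no cell of the other libraries goes beyond 21.

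The counts of the 210 cells were not from a few copies. Their 10730 counts of shared classes lay over 3816 loci, or 2.81 per locus. At most named loci with at least 100 counts in this library, between 35.0% of counts (L1MB8_3end locus 3590001) and 45.1% (L1MB7_3end locus 4083428) came from them, with 39.9% at L1ME3Cz_3end locus 996877. The exceptions were L1MB7_3end locus 3546512 (2.04%), L1ME3E_3end locus 4758402 (1.87%) and L1ME3A_3end locus 1722402 (11.5%). Older L1 levels chose these cells, so their excess is a description. Among the 17 older L1 families with at least 500 counts in the library, it ran from 1.16-fold for L1P1_5end and 3.86-fold for L1PB_orf2 to 28.8-fold for L1ME3Cz_3end. For TE that the limit did not use, L2 names (an older LINE) were 31.4-fold higher in the 210 cells than in the other cells, MIR names (an old SINE) 20.5-fold and the family HERVH 35.0-fold. The MIR counts were all of the family MIRb, and 1824 of the 1853 L2 counts in the 210 cells were of L2a_3end. The LTR12 names were at 0.885 times the other cells, Alu at 0.941 and young L1 at 1.31. Of 92 other TE families with at least 500 counts, 13 were at 2-fold or more. MER112 (34.6-fold), MER2 (18.4-fold) and Tigger1 (9.51-fold) were among them. LTR7 (1.43-fold), LTR7Y (1.55-fold) and LTR7C (1.16-fold) were not.

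The 210 cells also differed in depth and in mitochondrial share. Their median count was 4488 against 9437 in the other thinned cells, and their median share of mitochondrial counts 24.7% against 17.5%. TE made up a median of 7.14% of their counts against 4.70%. MALAT1 and NEAT1, long noncoding RNAs kept in the nucleus, summed to 8690 CPM against 11089 CPM. EPCAM, an epithelial marker of HCT116, was at 47.9 against 45.6 CPM and VIM, a mesenchymal marker of H1299, at 232 against 265 CPM. The part of depth and RNA quality in the older L1 excess of these cells was not tested. Over the whole library, the HCT116 ratio was 0.67 without cells above 25% mitochondrial counts and 0.47 without cells under 5000 counts.

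Genes known to silence L1 copies were counted beside all genes. Of a list of 12 (TRIM28, SETDB1, ATF7IP, FAM208A, MPHOSPH8, PPHLN1, MORC2, DNMT1, UHRF1, DNMT3A, DNMT3B and SAFB), 0 were at least 2-fold higher in H1299 (17.9% of genes tested were) and 2 were lower (7.48% of genes). These were DNMT1, the maintenance methyltransferase, with 14762 and 6738 counts (log2 -1.08), and its partner UHRF1, with 4938 and 1964 (-1.28). In HCT116, 0 were higher (16% of genes) and 3 lower (20.4% of genes), namely UHRF1 (7761 and 1103 counts, -2.13), DNMT3A (472 and 94, -1.64) and the HUSH subunit FAM208A (1713 and 529, -1.01). The HUSH subunit MPHOSPH8 was above its DMSO level in both lines, at 0.32 and 0.68. DNMT3B, a de novo methyltransferase, was at 0.97 in H1299 (211 and 400 counts) and -0.74 in HCT116 (674 and 250). TRIM28 was at -0.59 in H1299 and -0.80 in HCT116. The median over the list was -0.28 in H1299 and -0.68 in HCT116, beside -0.08 and -0.24 over all genes tested.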

How the data were processed

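Cells of 4 libraries (5′ 10x Genomics) were analysed from the table of genes and the table of TE features that the authors deposited, both holding whole-number counts per feature and cell. The submitters' processing notes name CASAVA, STAR and GRCh38 (hg38) with no version. Whether the counts are UMI counts, the meaning of the position and locus numbers, and the rule by which classes were listed are stated in no source used here. No listed class had fewer than 20 counts in a library. All 15289 cells were kept, the lowest with 2086 counts, and no doublet caller was run.

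Samples were grouped by the cell name's library and its label. Counts were summed per family, position number, locus and library with python 3.11.15, numpy 2.4.6, pandas 2.3.3 and scipy 1.17.1. CPM used gene plus TE counts as the denominator. Ratios carry 95% exact conditional binomial intervals, shares Clopper-Pearson and levels exact Poisson intervals, and differences between lines a normal approximation. All cover counting error only. No test was made, since each group has a single library. A fit of treatment with line as a block would have 1 residual degree of freedom and was not run. Calls needed 4-fold (also 2-fold) and 100 counts for classes and genes or 20 for loci, with a 0 set to 3 counts. Cells were thinned to 3300 counts and libraries to 38927267. The code for the calls was run on simulated Poisson counts with known changes. Those hold no variation between libraries or cells, so they do not measure the error of the calls made here.

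Named items were the 10 families with most counts per line, the 3 highest and 3 lowest class ratios, the 5 loci with most counts per library, the 5 highest and 3 lowest locus ratios with 100 counts, and loci with 100 counts in both treated libraries. L1P2_5end, L1M5_orf2, and the families and TE sets compared in cells with many older L1 counts were added after their values were seen. The members and lists were chosen with earlier results of these data known. Whether libraries were grown or run on separate days is not given.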

Additional observations from a re-analysis of the deposited data

Results flagged for a closer look

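Several older L1 groups lay below their DMSO level in H1299 and above it in HCT116, in CPM with both counting intervals excluding 0 over the classes listed in all 4 libraries. With 1 library per group the difference was not tested. H1299 minus HCT116 on the log2 scale was -1.24 for L1MB, -1.16 for L1MC, -1.28 for L1ME and -1.22 for the 3end names together. By family it was -0.98 for L1MB4_3end, -1.38 for L1MB5_3end, -1.33 for L1MB7_3end, -1.11 for L1MB8_3end, -1.06 for L1MC4_3end, -1.14 for L1MC5a_3end, -1.25 for L1ME3A_3end and -1.80 for L1ME3Cz_3end. Over all classes listed in either library, L1MC in H1299 was at -0.0053 and L1ME at 0.03. The L1ME3Cz_3end value rests on locus 996877, without which the ratio was 0.34 (-0.04 to 0.72) in H1299 and 0.61 (0.14 to 1.08) in HCT116. Counted per cell, the HCT116 ratio of DAC+SB over DMSO was below 1 for L1MB4_3end (0.946), L1MB8_3end (0.964), L1MC4_3end (0.849) and L1MC5a_3end (0.910). Without HCT116 cells under 3300 counts, the HCT116 log2 ratio was 0.84 for L1MB, 0.80 for L1MC, 0.88 for L1ME and 0.82 for the 3end names. Leaving out also the cells with at least 15 older L1 counts in 3300, a choice made on the measured counts, gave 0.08, 0.17, 0.17 and 0.11.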

How the results depend on the processing

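No analysis paired by replicate number was possible, because the groups share only replicate number 1. Pairing DMSO with DAC+SB by line is another fit, which was not run. The older L1 log2 ratio was -0.02 in H1299 and 0.99 in HCT116. Over all classes listed in either library it was 0.21 and 1.39, over classes listed in all 4 libraries 0.0024 and 1.02, and without mitochondrial, ribosomal protein and TE counts in the denominator 0.043 and 1.13. Per cell it was -0.13 and 0.065. In H1299 it was 0.0075 without the locus with most counts, 0.030 with each locus counted at most 1 time in a cell and -0.19 without L1P1 and L1P2, so its sign is not settled. In HCT116 it was 1.59 as a mean over cells, 1.07 without the 5% of cells with most counts, 0.67 without cells above 25% mitochondrial counts, 0.47 without cells under 5000 counts and 0.82 without cells under 3300. Leaving out with the latter the cells of at least 15 older L1 counts in 3300 gave 0.20, and the 5% of cells with most older L1 counts in each library 0.39. Over the classes listed in all 4 libraries, the difference between lines was -0.20 per cell and -0.84, -0.19 and -0.39 in these last 3 settings.

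At 2-fold, classes lower numbered 1 in H1299 (0 at 4-fold) and classes higher 17 in HCT116 (0 at 4-fold), and with each class without its locus with most counts 1 HCT116 class was 4-fold higher. The 17 became 9, 4 and 4 in the 3 settings. Loci lower numbered 82 in H1299 at 2-fold against 18, and in HCT116 138 were higher and 23 lower at 2-fold against 76 and 6. At a minimum of 100 counts, 1 and 1 remained called in H1299 and 5 and 2 in HCT116. In the 2 settings that leave out cells by older L1 counts as well as cells under 3300 counts, 21 and 23 HCT116 loci were higher and 17 and 12 lower. For these alternative locus counts, and for class counts with cells or loci left out, no share over all TE was taken. Over all listed classes 14221 loci had a count in HCT116 DAC+SB against 9320. Without thinning, 99.6%, 99.3%, 95.7% and 88.5% of cells had a count. The per-cell, L1P1, depth and high-count alternatives were chosen after seeing the data, and the cause of these differences was not tested. Of 84 values recomputed for these results, 40 stayed within the interval or within 1.5 times the count. Loci with few counts and unlisted classes limit what can be compared at this depth.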
